A study of Drosophila melanogaster with 33 samples.

Results

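The proteasome subunit genes of the fruit fly were followed through early embryonic development in total RNA and in RNA made after an injected label. They were chosen by symbol (Prosalpha, Prosbeta, Rpn or Rpt followed by a number or letter code) and by a level of at least 1 ppm (signal per unit of transcript length, scaled to 1000000 per library) in at least 2 poly(A) libraries. Of the 16407 genes in the deposited tables, 47 carry such a symbol and 33 passed the level rule. The 33 were 14 genes of the core particle and 19 of the regulatory particle. They comprised 13 canonical core subunits (6 of the alpha ring and 7 of the beta ring), 18 canonical regulatory subunits (6 base ATPases, 4 other base subunits and 8 lid subunits) and 2 copies of canonical genes, Prosbeta2R2 and Rpt3R.

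The proteasome is the protease that degrades ubiquitin-tagged proteins in the cytoplasm and nucleus. Its core particle is a barrel whose outer alpha rings gate the entry of substrates and whose inner beta rings hold the cutting sites. The regulatory particle caps the barrel: its lid removes the ubiquitin chain, and its base binds the tagged protein, unfolds it with a ring of ATPases and feeds it into the barrel. In the fly embryo the mother loads both the protein and the transcripts into the egg, and maternal proteins and RNAs are cleared as the zygotic genome takes over. In flies several core subunits, and some ATPases, also have copies that are known for expression in the testis.

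The embryos were of the Oregon R wild-type strain. All had been injected with the uridine analogue 5-ethynyl uridine (5-EU), which is built into newly made RNA, and morphology sorted them into 4 stages: nuclear cycles 7-9 (NC 7-9), the overlapping NC 9-10, the syncytial blastoderm and, last, the cellular blastoderm. Biotin was coupled to the labelled RNA for capture on streptavidin, which gave 3 fractions per preparation, the input taken before capture, the eluate with the captured RNA, and the flow-through with what did not bind. The poly(A) set had 21 libraries, from a single preparation of NC 7-9 embryos and 2 of each of the other stages. The rRNA-depleted set had 12 libraries and 1 preparation of every stage. The injected concentration was 250 mM, except for the second poly(A) preparation at syncytial blastoderm and at cellular blastoderm, which had 50 mM, so that the dose and the preparation cannot be told apart at those stages. The series set out to identify transcripts made by the zygotic genome in its earliest activity.

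Several limits apply to all values. The RNA came from pooled whole embryos, so fewer cells of a type and less RNA per cell cannot be told apart, and captured RNA can hold unlabelled carry-over, for which no uninjected control library was among the samples. No label says that the preparations came from separate embryo collections, so the p-values measure the spread between these preparations, which may be technical. Fractions of the same preparation were fitted as independent libraries, so p-values of stage comparisons within input or within eluate may be too small. Estimated reads per poly(A) library, in units of 1000000, were 4.23 to 27.8 in eluates, 1.93 to 36.9 in flow-throughs and 6.45 to 21.2 in inputs. The labels could be checked on 2 lists of reference genes: in poly(A) input, 11 of 11 zygotic genes rose and 6 of 7 maternal genes fell between NC 9-10 and cellular blastoderm. Markers of follicle cells, which surround the egg in the ovary, summed to 0 to 5.26 ppm over the poly(A) libraries, and 8 of 8 were at 0 in all NC 7-9 and NC 9-10 libraries. Markers of older embryonic tissues summed to 9.72 to 58.1 ppm in inputs and to 9.11 to 162 ppm in eluates, and none of the 8 was at 0 in both cellular blastoderm inputs. The highest sums rested mostly on single genes. Mef2 made up 54.5 of 54.6 ppm in the NC 7-9 input, and elav made up 113 of 162 ppm in the first cellular blastoderm eluate. The part of these markers in the results was not tested.

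A level is given in ppm per unit of transcript length, after scaling between libraries, and can therefore be compared between genes. Every canonical member was at or above 1 ppm in all 21 poly(A) libraries. Together the 31 canonical members made up 1.28% to 1.87% of the summed length-normalised signal of a poly(A) input. Over the 7 poly(A) inputs the mean level was highest for Prosalpha5 (1414 ppm) and lowest, among canonical members, for Rpn7 (94.9 ppm). The next highest were Prosbeta1, Prosbeta3 and Prosalpha4 at 1055, 1047 and 1031 ppm, and the ranges of all 4 genes over the inputs overlapped. The highest regulatory gene was the lid subunit Rpn5 at 596 ppm, the seventh in this order.

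Core and regulatory transcripts separated as development went on. Between NC 9-10 and cellular blastoderm, 10 of the 13 canonical core genes rose in poly(A) input and none fell (0 rose with scaling to the library total alone or on the values as deposited), whereas 12 of the 18 canonical regulatory genes fell and 3 rose. The median log2 difference was 1.25 for the core (range 0.63 to 1.57), -1.20 for the regulatory particle (range -2.97 to 1.30) and 0.31 for all 8618 genes tested. In this comparison 49.6% of all tested genes were called, 27.9% as higher and 21.7% as lower, at an adjusted p below 0.05 (limma on log2(level + 1), Benjamini-Hochberg over all genes tested).

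**Figure D1:**
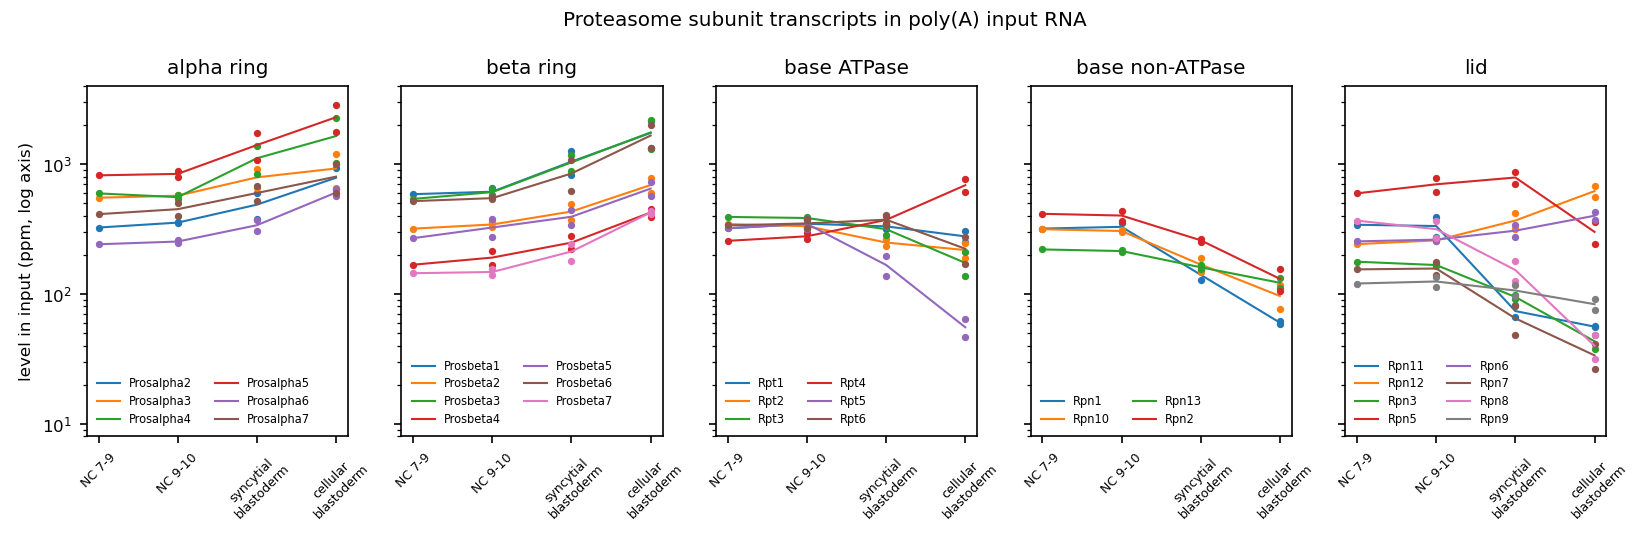
Level of the 31 canonical proteasome genes in the 7 poly(A) input libraries (ppm, log axis) by stage, in 1 panel per subcomplex. Points are libraries and lines join stage means; the alpha and beta ring lines end higher than they begin (on the values as deposited the core median change from NC 9-10 was -0.02, beside -0.76 for all genes), and most base and lid lines end lower, with Rpt4, Rpn6 and Rpn12 as the regulatory genes whose lines end higher.

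In the alpha ring, Prosalpha5 had the highest input level, with 819 ppm at NC 7-9, 795 and 887 at NC 9-10, 1074 and 1731 at syncytial blastoderm and 1755 and 2839.7 at cellular blastoderm. Both cellular blastoderm values lay above both NC 9-10 values, and the log2 difference was 1.41 ± 0.48 (SE, adjusted p = 0.0284). The lowest member, Prosalpha6, stood at 241 ppm at NC 7-9, 248 and 259 at NC 9-10, 303 and 373 at syncytial blastoderm and 564 and 644 at cellular blastoderm. Its difference was 1.25 ± 0.26 (SE, adjusted p = 0.0019), again with no overlap between the 2 stages. Prosalpha4 rose by 1.45 ± 0.49, while Prosalpha2, Prosalpha3 and Prosalpha7 had positive differences of 1.12, 0.63 and 0.79 that did not pass the test.

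All 7 beta ring genes rose between NC 9-10 and cellular blastoderm, by 0.996 to 1.57 on the log2 scale. They include the subunits that carry the caspase-like (Prosbeta1), trypsin-like (Prosbeta2) and chymotrypsin-like (Prosbeta5) cutting sites. Prosbeta1, the highest of the ring, was at 587 ppm at NC 7-9, 575 and 651 at NC 9-10, 823 and 1267 at syncytial blastoderm and 1326 and 2154 at cellular blastoderm. Prosbeta7, the lowest, was at 144 ppm at NC 7-9, 141 and 154 at NC 9-10, 180.2 and 244 at syncytial blastoderm and 415 and 433 at cellular blastoderm. In each the cellular blastoderm values were above all earlier inputs. The largest differences in the ring belonged to Prosbeta6 at 1.57 ± 0.47 (SE, adjusted p = 0.0162), Prosbeta7 at 1.52 ± 0.37 (SE, adjusted p = 0.00501) and Prosbeta3 at 1.48 ± 0.47 (SE, adjusted p = 0.0207), all without a cutting site of their own. The catalytic subunits differed by 1.46 ± 0.44 (Prosbeta1), 0.996 ± 0.25 (Prosbeta2) and 1.001 ± 0.33 (Prosbeta5), log2 difference ± SE.

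The base ATPases moved in both directions. Rpt5 had 320.1 ppm at NC 7-9, 314 and 379 at NC 9-10, 137 and 197 at syncytial blastoderm and 46.5 and 64.1 at cellular blastoderm. It fell from NC 9-10 to syncytial blastoderm and again to cellular blastoderm, with a log2 difference over both steps of -2.64 ± 0.28 (SE, adjusted p = 1.63e-05), and its 3 latest stage groups did not overlap. Rpt4 had 256 ppm at NC 7-9, 263 and 292 at NC 9-10, 345 and 398 at syncytial blastoderm and 614 and 762 at cellular blastoderm. Its levels ran the other way from those of Rpt5, with a difference of 1.30 ± 0.37 (SE, adjusted p = 0.0126). Rpt3 (-1.18 ± 0.30) and Rpt2 (-0.62 ± 0.23) fell, and the differences of Rpt6 (-0.68 ± 0.30) and Rpt1 (-0.33 ± 0.24) did not pass. The 6 ATPases form a single ring in the protein complex, and at cellular blastoderm the Rpt4 input level was 614 and 762 ppm against 46.5 and 64.1 ppm for Rpt5.

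The 4 other base subunits all fell. Rpn2, a large scaffold subunit, had 414 ppm at NC 7-9, 438 and 365 at NC 9-10, 264 and 253 at syncytial blastoderm and 105 and 156 at cellular blastoderm. Rpn1, the other scaffold and a docking site for shuttle proteins, had 319 ppm at NC 7-9, 303 and 355 at NC 9-10, 128 and 153 at syncytial blastoderm and 58.7 and 61.3 at cellular blastoderm. The Rpn1 groups did not overlap between any of the 3 latest stages. The log2 differences were -2.43 ± 0.24 (SE, adjusted p = 1.06e-05) for Rpn1 and -1.63 ± 0.23 (SE, adjusted p = 0.000108) for Rpn2. The differences of the ubiquitin receptors Rpn10 and Rpn13 were -1.69 ± 0.31 and -0.81 ± 0.24. Rpn13 was the lowest of these subunits by mean, with 220.0 ppm at NC 7-9, 211 and 217 at NC 9-10, 155 and 166 at syncytial blastoderm and 110.3 and 133 at cellular blastoderm.

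In the lid 5 genes fell, 2 rose and 1 was not called. Rpn8, the partner of the deubiquitinase in the lid, had 367 ppm at NC 7-9, 363 and 268 at NC 9-10, 179.9 and 125 at syncytial blastoderm and 48.0 and 31.6 at cellular blastoderm. Its log2 difference of -2.97 ± 0.44 (SE, adjusted p = 0.000195) was the largest of any member. Rpn11, the deubiquitinase that cuts the ubiquitin chain off the substrate, had 341 ppm at NC 7-9, 274 and 393 at NC 9-10, 65.9 and 81.5 at syncytial blastoderm and 56.3 and 55.5 at cellular blastoderm. Most of the Rpn11 difference was already present at syncytial blastoderm, and from NC 9-10 to cellular blastoderm it came to -2.53 ± 0.28 (SE, adjusted p = 1.95e-05). Rpn7, a scaffold subunit, was the lowest of the lid with 154 ppm at NC 7-9, 139 and 175 at NC 9-10, 48.5 and 80.9 at syncytial blastoderm and 26.2 and 41.0 at cellular blastoderm, and its difference was -2.21 ± 0.40 (SE, adjusted p = 0.000783). Rpn5, also a scaffold subunit and the highest of the lid, had 595 ppm at NC 7-9, 609 and 788 at NC 9-10, 708 and 868 at syncytial blastoderm and 242 and 359 at cellular blastoderm. Rpn5 was therefore lower only at the last stage, with -1.23 ± 0.26 (SE, adjusted p = 0.0021) over the interval. Rpn3 (-1.94 ± 0.29) fell, and Rpn9 (-0.58 ± 0.34) did not pass.

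Rpn12 and Rpn6, both lid subunits, rose. Rpn12 had 242 ppm at NC 7-9, 255 and 262 at NC 9-10, 316 and 418 at syncytial blastoderm and 561 and 678 at cellular blastoderm. Its log2 difference was 1.25 ± 0.35 (SE, adjusted p = 0.0113). Rpn6, which braces the lid against the core particle, had 254 ppm at NC 7-9, 270.1 and 254 at NC 9-10, 273 and 341 at syncytial blastoderm and 372 and 428 at cellular blastoderm, and its difference was 0.61 ± 0.21 (SE, adjusted p = 0.0309). With Rpt4 these were the 3 regulatory genes that were higher at cellular blastoderm. Over the 7 inputs their log2 levels correlated with the median profile of the core genes at a Pearson r of 0.94 (Rpn12), 0.93 (Rpn6) and 0.93 (Rpt4). With the median profile of the regulatory genes, the gene itself left out, r was -0.91, -0.86 and -0.91. The other 15 canonical regulatory genes had r values of -0.93 to -0.29 with the core profile. These r values describe 7 libraries of the same scaling and are given without a test.

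The called rises of the core depended on how libraries were put on a common scale, and the falls of the regulatory particle were called on every scale tried. With scaling to the library total alone, no canonical member was called higher and 15 were called lower, beside 1225 higher and 2427 lower among all genes (2404 and 1868 on the scale used here), and the medians were 0.70 for the core, -1.75 for the regulatory particle and -0.05 for all genes. On the values as deposited 0 were called higher and 15 lower, beside 13.6% of all genes called higher and 32.4% lower, with medians of -0.02 for the core, -2.48 for the regulatory particle and -0.76 for all genes. The 15 were the same 15 regulatory genes under both, all but Rpn12, Rpn6 and Rpt4. Without the first NC 9-10 input the number of canonical members called dropped from 25 to 13, without the second NC 9-10 input to 17 and without the second cellular blastoderm input to 16. In those fits 3, 7 and 3 were called higher, and the core median was 1.22, 1.34 and 1.05.

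The ratio of the core median to the regulatory median within a library does not depend on that scaling. In poly(A) input it was 1.29 at NC 7-9, 1.33 and 1.55 at NC 9-10, 2.51 and 3.01 at syncytial blastoderm, and 5.98 and 6.95 at cellular blastoderm. The stage ranges did not overlap from NC 9-10 onward. In flow-through it was 1.27, then 1.45 and 1.56, then 2.49 and 3.57, and last 8.30 and 8.43. The eluates behaved differently, with 1.23 at NC 7-9, 1.15 and 1.13 at NC 9-10, 1.86 and 2.11 at syncytial blastoderm, and 1.97 and 2.23 at cellular blastoderm. The captured RNA of the last stage thus lacked the wide gap seen in input and flow-through of the same preparations.

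**Figure D2:**
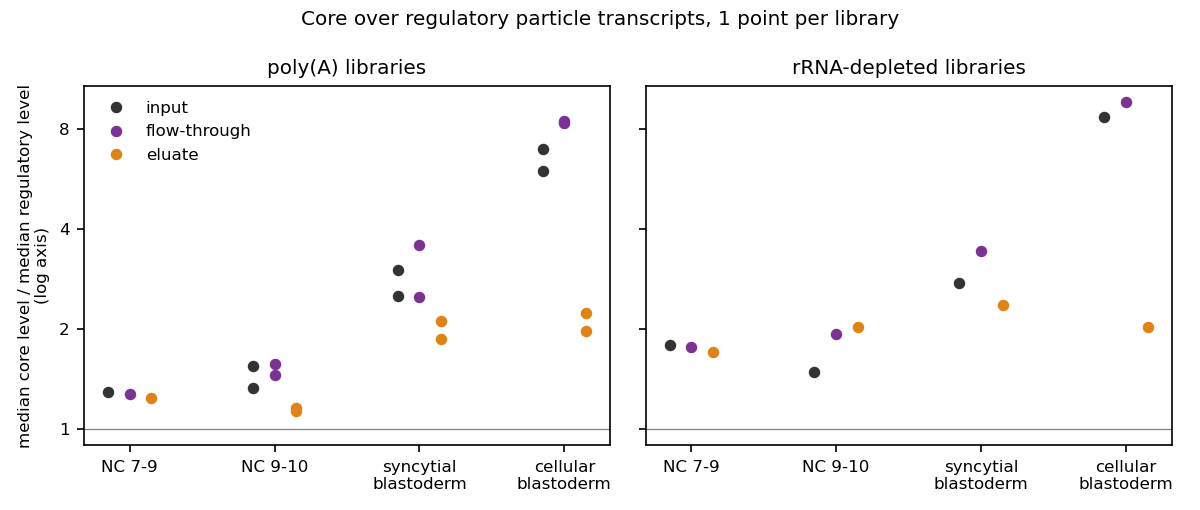
Median level of 13 core genes divided by the median level of 18 regulatory genes (log axis) in every library, by stage and fraction, for poly(A) libraries (left) and rRNA-depleted libraries (right). Input and flow-through climb to 5.98 or more at cellular blastoderm, whereas the highest eluate is at 2.35.

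The spread within the regulatory particle widened as well. The highest regulatory level was 5.37 and 5.81 times the lowest in the NC 9-10 inputs and 23.4 and 24.2 times the lowest at cellular blastoderm. For the core genes the same quotient was 5.65 and 5.75 at NC 9-10 and 4.46 and 6.55 at cellular blastoderm, so it did not separate the stages. In cellular blastoderm flow-through the regulatory quotient reached 39.5 and 66.0, and in eluates of that stage it was 4.70 and 7.91.

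The fall of regulatory transcripts was spread over both intervals. From NC 9-10 to syncytial blastoderm, where 7.68% of all genes were called (1.8% as higher and 5.88% as lower), 3 members fell and none rose. These were Rpn11 at -2.15 ± 0.28 (SE, adjusted p = 0.00128), Rpn1 at -1.22 ± 0.24 (SE, adjusted p = 0.00926) and Rpt5 at -1.07 ± 0.28 (SE, adjusted p = 0.0379). Without the second NC 9-10 input or without the first syncytial input 1 canonical member was called. From syncytial to cellular blastoderm, where 31.2% were called (17.1% as higher and 14.1% as lower, or 704 higher and 1764 lower genes with the total alone), 7 regulatory genes fell, led by Rpn8 at -1.92 ± 0.44 (SE, adjusted p = 0.00675), Rpt5 at -1.57 ± 0.28 (SE, adjusted p = 0.0014) and Rpn5 at -1.41 ± 0.26 (SE, adjusted p = 0.00177). Among canonical members 1 rose in that interval, Prosalpha6, at 0.84 ± 0.26 (SE, adjusted p = 0.0289), and on the values as deposited its difference was -0.0172, beside a median of -0.39 for all genes. Without the first cellular blastoderm input 4 canonical members were called in place of 8, and without either syncytial input 5 were. All 13 core genes had positive differences in both intervals, with medians of 0.45 and 0.72 beside 0.03 and 0.32 for all genes.

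No member differed between flow-through and input by the test. Over all stages, 0 of 8618 genes passed for flow-through against input (limma, 0% called). At an unadjusted p below 0.05 there were 48 genes above input and 26 below it. Among members the smallest unadjusted p values were those of Prosbeta2 (log2 difference 0.31 ± 0.15), Prosbeta4 (0.31 ± 0.21) and Prosalpha6 (0.26 ± 0.19). In the first cellular blastoderm preparation flow-through was above input for 13 of 13 core genes (median log2 difference 0.36) and 12 of 18 regulatory genes (0.07). In the second it was above input for 11 of 13 (0.28) and 11 of 18 (0.13). The medians of all genes were -0.02 and -0.03. At cellular blastoderm Rpn7 was at 11.9 and 27.0 ppm in flow-through, against 26.2 and 41.0 in input and 108 and 130.1 in eluate. For this gene the order of the 3 fractions was therefore the same in both preparations, with the eluate highest and the flow-through lowest.

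Captured RNA was compared with input at each stage to ask which transcripts carried the label. At NC 9-10 none of the 8618 genes passed (limma, 0% called), and so no member was called. The genes at an unadjusted p below 0.05 numbered 135 above input and 261 below it. The members with the smallest unadjusted p were Prosbeta5 (-0.77 ± 0.33), Rpn13 (-0.54 ± 0.24) and Prosalpha7 (-0.64 ± 0.33), log2 difference ± SE. At syncytial blastoderm 12% of all genes were called (11.3% as higher and 0.708% as lower), and no member was. With scaling to the total alone, 852 genes were higher and 399 lower, and 3 members, Prosalpha7, Prosbeta5 and Rpn13, were called lower. Prosalpha7 (-0.86), Rpn13 (-0.46) and Prosbeta5 (-0.61) came nearest, with adjusted p of 0.147, 0.321 and 0.345 in limma. With the preparation as a replicate block, 6 members were called lower there, namely Prosalpha2, Prosalpha3, Prosalpha7, Prosbeta1, Prosbeta5 and Rpt3, beside 19.5% of all genes called in that fit (4.28% as lower).

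At cellular blastoderm the core and regulatory particles parted. All 13 canonical core genes were lower in eluate than in input, with a median log2 difference of -1.50 (range -2.15 to -0.75) beside 0.55 for all genes. Of the 18 canonical regulatory genes, 7 were higher, 5 lower and 6 not called (0 were higher on the values as deposited, where 0.708% of all genes were higher and the median of all genes was -1.91). In this comparison 56.2% of all genes were called, 38.6% as higher and 17.6% as lower. The regulatory median was 0.46, below that of all genes, and the share of regulatory genes called higher was close to that of all genes. The split among members hardly moved with scaling to the total alone, 6 canonical members higher and 18 lower. Without the first eluate of that stage the number of canonical members called dropped from 25 to 13, and without the second input to 14, with 7 and 8 then called lower in place of 18, and 6 higher in both. With the preparation as a replicate block Rpn8 and Rpn10 were called higher too, which made 9 regulatory genes higher, beside 71.7% of all genes called in that fit.

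The largest core deficits in captured RNA were in the alpha ring. Prosalpha2 had 113 and 267 ppm in eluate against 644 and 926 in input, a log2 difference of -2.15 ± 0.47 (SE, adjusted p = 0.00241). Prosalpha5 had 355 and 821 ppm against 1755 and 2839.7, a difference of -2.05 ± 0.48 (SE, adjusted p = 0.0037). Prosalpha4 had 299 and 666 ppm against 1015 and 2277, a difference of -1.77 ± 0.49 (SE, adjusted p = 0.00967). In all 3 genes both eluates lay below both inputs. Prosalpha6 and Prosbeta2 had the smallest deficits of the core, at -0.75 ± 0.26 and -0.77 ± 0.25.

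The regulatory genes with a higher level in captured than in input RNA, on the scale used here, were led by Rpn1, Rpn11 and Rpn7. Rpn1 had 247 and 273 ppm in eluate against 58.7 and 61.3 in input, a log2 difference of 2.09 ± 0.24 (SE, adjusted p = 9.93e-05). Rpn11 had 236 and 238 ppm against 56.3 and 55.5, a difference of 2.06 ± 0.28 (SE, adjusted p = 0.00017). For Rpn7, with the fractions given above, the difference was 1.83 ± 0.40 (SE, adjusted p = 0.0027). The groups did not overlap in any of the 3. Rpt5 (1.81 ± 0.28), Rpn2 (1.64 ± 0.23), Rpn3 (1.15 ± 0.29) and Rpn9 (0.89 ± 0.34) were also higher, while Rpt4 (-1.56 ± 0.37), Rpt1 (-1.35 ± 0.24), Rpn12 (-1.19 ± 0.35), Rpt2 (-0.76 ± 0.23) and Rpn6 (-0.71 ± 0.21) were lower. On the values as deposited, where eluate totals are far below input totals, Rpn7, Rpn11 and Rpn1 had negative differences of -0.83, -0.60 and -0.57, beside that median of -1.91.

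**Figure D3:**
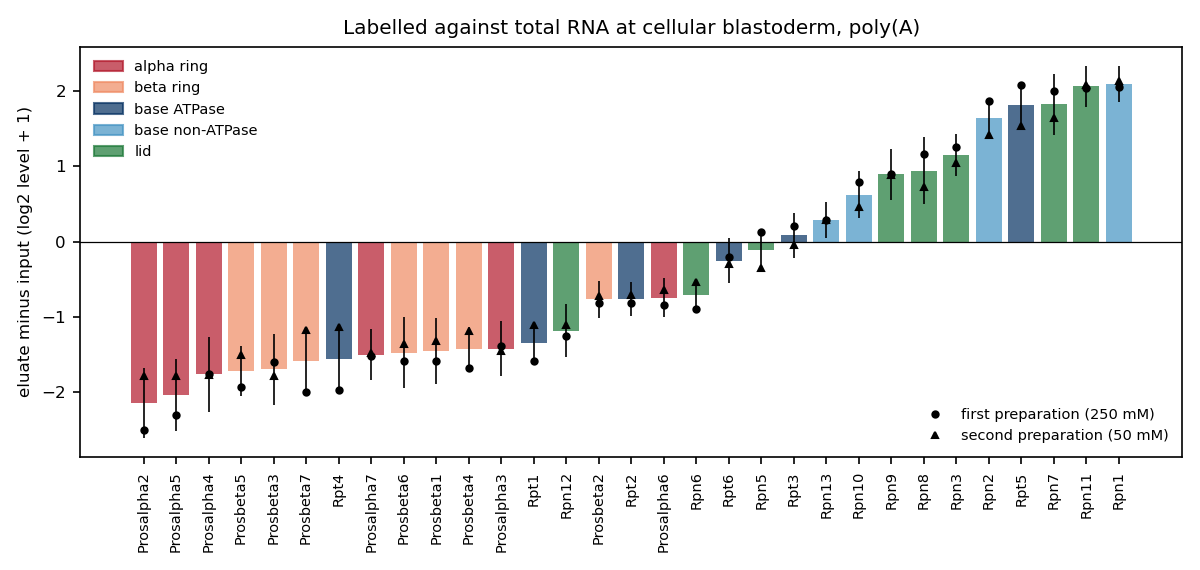
Eluate minus input (log2(level + 1)) at cellular blastoderm in poly(A) libraries for the 31 canonical genes, ordered by size and coloured by subcomplex. Bars are the fitted differences with ± 1 SE, and points are the 2 preparations; all 13 core bars are negative, and the bars run from -2.15 (Prosalpha2) to 2.09 (Rpn1), the latter being -0.57 on the values as deposited, where the median of all genes was -1.91.

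Set side by side, the stage change in input and the capture at cellular blastoderm sorted the regulatory genes into kinds. Both comparisons use the cellular blastoderm inputs, so a low input there favours a fall in the one and a capture excess in the other. Of the 12 regulatory genes that fell in input, 6 were higher in eluate than in input (Rpn1, Rpn2, Rpn3, Rpn7, Rpn11 and Rpt5), 5 were not called (Rpn5, Rpn8, Rpn10, Rpn13 and Rpt3) and 1 was lower (Rpt2). With the replicate block 8 of the 12 were higher, Rpn8 and Rpn10 having joined them, and 3 were not called. The 3 that rose in input, Rpn12, Rpn6 and Rpt4, were lower in eluate, as were the 10 core genes that rose.

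Eluates compared with each other across stages share no library with the inputs. Between NC 9-10 and cellular blastoderm, where 56.8% of all genes were called (38.8% as higher and 18% as lower), no canonical core gene was called and 6 regulatory genes fell. The core median was 0.04 and the regulatory median -0.49, beside 0.45 for all genes. The largest falls were those of Rpn8 at -1.70 ± 0.44 (SE, adjusted p = 0.00605), Rpt1 at -1.29 ± 0.24 (SE, adjusted p = 0.000586) and Rpn5 at -1.25 ± 0.26 (SE, adjusted p = 0.00139), followed by Rpt2, Rpn10 and Rpt5 at -1.01, -0.82 and -0.79. Rpn11, Rpn7 and Rpn2 had eluate differences of -0.13, -0.16 and -0.10, none of which passed, although all 3 fell in input. With scaling to the library total alone, which gave 2460 higher and 2499 lower genes, 16 members fell, among them Prosalpha2 and Prosalpha3, and the core median was -0.60. No canonical member fell and 4 rose on the values as deposited, beside 34.7% of all genes called higher and 8.01% lower.

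**Figure D4:**
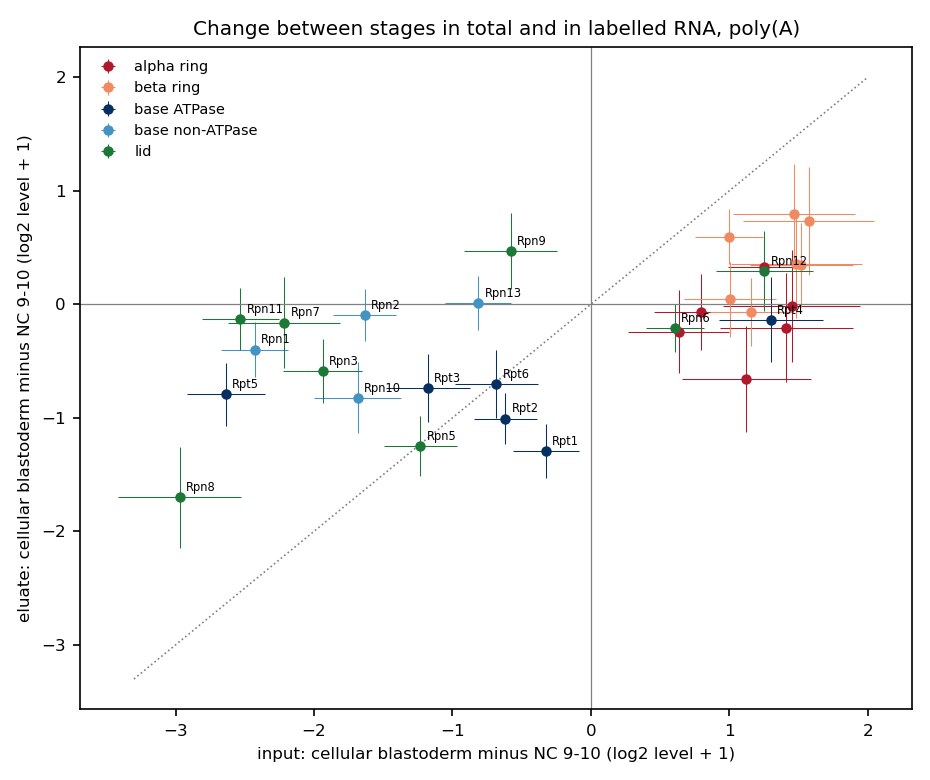
Change from NC 9-10 to cellular blastoderm in poly(A) input (horizontal) and in poly(A) eluate (vertical) for the 31 canonical genes, as log2(level + 1) differences with ± 1 SE; regulatory genes are named and the dotted line marks equal change. Core genes lie between 0.63 and 1.57 on the input axis and between -0.65 and 0.79 on the eluate axis (with a median of -0.02 on the input axis on the values as deposited, beside -0.76 for all genes), and Rpn11 and Rpn1 lie at -2.53 and -2.43 on the input axis with eluate values of -0.13 and -0.41.

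The path between those stages was not monotonic for all captured transcripts. Rpn11 had eluate levels of 304 ppm at NC 7-9, 225 and 299 at NC 9-10, 51.3 and 75.7 at syncytial blastoderm and 236 and 238 at cellular blastoderm. Its fall to syncytial blastoderm, -2.04 ± 0.28 (SE, adjusted p = 0.000211), was followed by a rise of 1.91 ± 0.28 (SE, adjusted p = 0.000189) to cellular blastoderm. Rpn1 had eluate levels of 319 ppm at NC 7-9, 282 and 417 at NC 9-10, 134 and 147 at syncytial blastoderm and 247 and 273 at cellular blastoderm. It fell by -1.29 ± 0.24 (SE, adjusted p = 0.00224) and then rose by 0.89 ± 0.24 (SE, adjusted p = 0.0108), so in both genes the syncytial eluates were the lowest. In the first interval 21% of all genes were called (13.6% as higher and 7.39% as lower, or 969 and 1282 genes with the total alone), and 5 members fell, Rpt5 (-1.18 ± 0.28), Rpn10 and Rpn2 being the others. Without the second NC 9-10 eluate or the first syncytial eluate, 2 members were called. In the second, with 45.2% called (31.1% as higher and 14.1% as lower), Rpn2 also rose (0.82 ± 0.23), and Rpt1 (-1.41 ± 0.24), Rpn5 (-1.16 ± 0.26) and Rpt2 (-0.77 ± 0.23) fell. Without the first syncytial eluate 3 canonical members were called in place of 6, and 3 rose and none fell on the values as deposited, beside 21.1% of all genes called higher and 5.37% lower. Rpt1 was thus a gene with near-level input, at 319.9 ppm at NC 7-9, 325 and 369.9 at NC 9-10, 316 and 347 at syncytial blastoderm and 251 and 304 at cellular blastoderm, and eluate levels of 258 ppm at NC 7-9, 279 and 250.1 at NC 9-10, 252 and 326 at syncytial blastoderm and 82.6 and 139.7 at cellular blastoderm.

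The difference in capture between stages was tested directly, as the change of the eluate minus input difference. From NC 9-10 to cellular blastoderm 35.7% of all genes were called (27.1% as higher and 8.62% as lower). The share of canonical members called was below that of all genes in this fit. Canonical members with a larger capture at cellular blastoderm numbered 6, led by Rpn11 at 2.40 ± 0.39 (SE, adjusted p = 0.00247), Rpn7 at 2.05 ± 0.57 (SE, adjusted p = 0.0173) and Rpn1 at 2.03 ± 0.34 (SE, adjusted p = 0.00271). Members with a smaller capture numbered 3, Prosbeta4 at -1.23 ± 0.42 (SE, adjusted p = 0.0394), Rpt1 at -0.96 ± 0.34 (SE, adjusted p = 0.0435) and Rpn6 at -0.82 ± 0.30 (SE, adjusted p = 0.0497). From syncytial to cellular blastoderm, with 16.9% of genes called (12.6% as higher and 4.27% as lower), Rpn11 (2.29 ± 0.39 (SE, adjusted p = 0.00849)), Rpn1 (2.09 ± 0.34 (SE, adjusted p = 0.00766)), Rpt5 (1.96 ± 0.40 (SE, adjusted p = 0.0117)), Rpn7 and Rpn2 were higher and Rpt1 (-1.14 ± 0.34 (SE, adjusted p = 0.0394)) was lower. With the preparation as a replicate block, the canonical members called rose from 9 to 24 in the former comparison (10 higher and 14 lower), where 56.8% of all genes were called in that fit (38.3% as higher and 18.4% as lower). In the latter they rose from 6 to 23 (11 higher and 12 lower), where 39.4% of all genes were called (23.3% as higher and 16.1% as lower). The count of 9 became 4 without the second NC 9-10 input or the first cellular blastoderm input, 5 without the second NC 9-10 eluate or the first NC 9-10 input, and 15 without the second cellular blastoderm eluate. The 3 calls of a smaller capture (Prosbeta4, Rpt1 and Rpn6) were made in no fit that left out 1 library except the last of these. The count of 6 became 3 without the second syncytial input and 11 without the second cellular blastoderm eluate, and Rpt1 was not called lower with the total alone or in 6 of the 8 fits that left out 1 library. On the values as deposited Prosbeta4, Rpt1 and Rpn6 turned positive, beside a median of all genes of 1.62 there and 0.56 on the scale used here.

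Over all stages together, with stage as a term, 12 members were lower in eluate than in input and none higher, beside 16.5% of all genes called (10.6% as higher and 5.98% as lower, or 618 and 1038 genes with the total alone). They were 11 core genes, led by Prosalpha2 at -0.95 ± 0.30 (SE, adjusted p = 0.0427), Prosbeta5 at -0.94 ± 0.22 (SE, adjusted p = 0.0224) and Prosalpha5 at -0.92 ± 0.30 (SE, adjusted p = 0.0466), and Rpt1. With the preparation as a replicate block 14 were lower, Prosalpha4 (-0.81, adjusted p = 0.0305 in limma) and Rpt2 (adjusted p = 0.0484) having been added, beside 19% of all genes called in that fit. In the fit without the block the count was fragile: without 1 library it ranged from 0 to 14, and it was 0 without the second cellular blastoderm eluate, the second NC 9-10 input, the second syncytial input or the second cellular blastoderm input. It was 1 to 4 without each of 6 others (the first syncytial eluate, the first cellular eluate, the NC 7-9 input, and the first input of each of the 3 later stages).

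At NC 7-9, with 1 preparation and so no test, the members were close to equal in eluate and input. The median eluate minus input difference was -0.28 for the core (1 of 13 above 0) and -0.14 for the regulatory particle (4 of 18 above 0), beside 0 for all genes.

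The rRNA-depleted libraries, which also hold RNA without a poly(A) tail, came from 1 preparation per stage and are given as values. From NC 9-10 to cellular blastoderm all 13 core genes were higher in input, 10 of them by over 2-fold, with a median log2 difference of 1.21. Of the 18 regulatory genes 3 were higher, 2 of them by over 2-fold, and 15 were lower, 11 of them by over 2-fold, with a median of -1.51. Over all genes 30.4% were above and 23.8% below 2-fold. The 3 higher ones were again Rpn12, Rpt4 and Rpn6, at 1.60, 1.40 and 0.75. Rpn11 ran from 404 to 83.1 and 67.1 ppm over the 3 later stages in rRNA-depleted input, and Rpn1 from 322 to 116 and 42.8 ppm. Both were lower at each step.

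**Figure D5:**
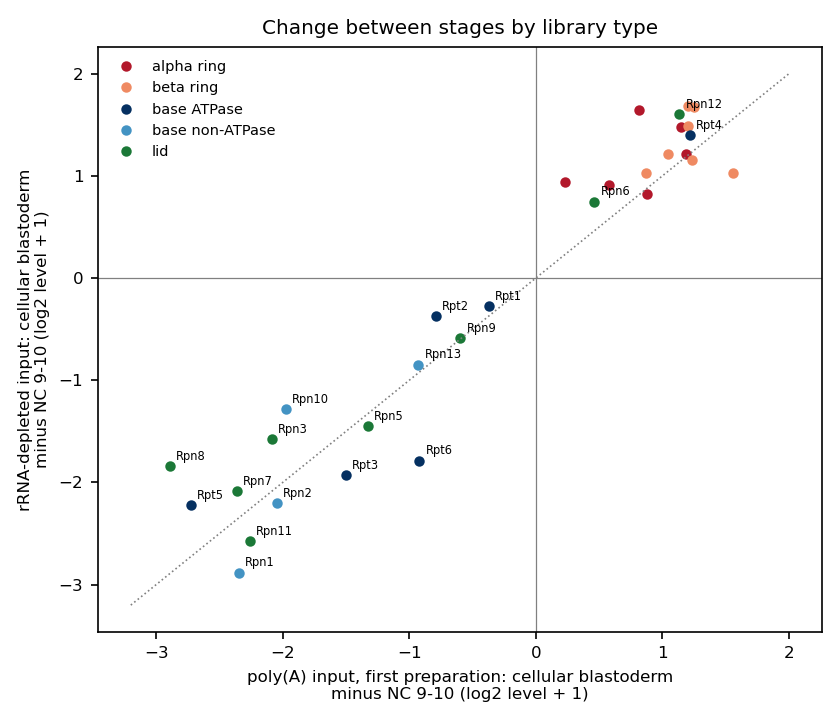
Change from NC 9-10 to cellular blastoderm in input RNA for the 31 canonical genes, in the first poly(A) preparation of each stage (horizontal) and in the rRNA-depleted libraries (vertical), as log2(level + 1) differences with regulatory genes named. The dotted line marks equal change; in both library types the core genes and Rpn12, Rpt4 and Rpn6 are above 0 and the other 15 regulatory genes are below 0.

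At cellular blastoderm the rRNA-depleted eluate was below its input for 13 of 13 core genes, with a median difference of -1.79. It was above it for 11 of 18 regulatory genes, with a median of 0.28. The median of all genes was 0.51, so the regulatory median lay below it. Rpn11 had 288 ppm in that eluate against 67.1 in input, and Prosalpha5 had 364 against 2372. The core to regulatory ratio was 8.69 in that input, 9.60 in the flow-through and 2.03 in the eluate. In the earlier rRNA-depleted eluates it was 1.71 at NC 7-9, 2.02 at NC 9-10 and 2.35 at syncytial blastoderm. The rise of the poly(A) eluates from NC 9-10 to cellular blastoderm was therefore not seen in this set. In the test over all 4 stages, where stages stood in for replicates, 0 of 8034 genes passed for eluate against input (limma, 0% called). A change of capture between stages therefore counted as spread in this fit. Genes at an unadjusted p below 0.05 were 516 above and 557 below input. The members with the smallest unadjusted p there were Rpt1 (-0.80 ± 0.26), Prosalpha3 (-0.80 ± 0.33) and Rpt3 (-0.66 ± 0.27), log2 difference ± SE. For flow-through against input 0 of 8034 genes passed in limma (0% called), with 29 above and 100 below input at an unadjusted p below 0.05. Rpn12 (0.52), Rpn1 (-0.66) and Rpn2 (-0.53) had the smallest unadjusted p among members.

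The copies were nearly silent beside the canonical genes. Rpt3R, a copy of the ATPase gene Rpt3, was at or above 1 ppm in 18 of 21 poly(A) libraries. Its input levels were 1.6 ppm at NC 7-9, 1.73 and 0.912 at NC 9-10, 1.91 and 4.36 at syncytial blastoderm and 5.8 and 8.12 at cellular blastoderm, with the cellular blastoderm values above all earlier ones. Its difference from NC 9-10 to cellular blastoderm, 1.78 ± 0.78 (SE, adjusted p = 0.0752), did not pass. At cellular blastoderm Rpt3 itself stood at 137 and 209 ppm in input.

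Prosbeta2R2, a copy of the trypsin-like subunit gene, passed the level rule through the 2 cellular blastoderm eluates alone, so its differences are given as a description. It was at 3.29 and 2.89 ppm there, from an estimated 25 and 26 reads, and at 0 in all earlier eluates. In cellular blastoderm input it was at 0.852 and 0.568 ppm, from an estimated 8 and 2 reads. The rRNA-depleted cellular blastoderm eluate held 4.26 ppm, from an estimated 63 reads, and the other 3 rRNA-depleted eluates held 0. Its parent gene Prosbeta2 was at 337 and 476 ppm in the poly(A) eluates of that stage.

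The other 14 genes of the symbol rule did not pass. Prosalpha1, an alpha ring subunit, was listed at 0 in all 33 libraries, as was CG30382, which the current annotation names Prosalpha1R and places beside it on chromosome 2R. Copies this alike can share reads, and how such reads were counted is not given in the sources used here, so the level of Prosalpha1 is uncertain. Prosalpha3T, Prosbeta2R1, Prosbeta4R1, Prosbeta4R2, Prosbeta5R1 and Prosbeta5R2 were at 0 in all 21 poly(A) libraries. Before scaling between libraries, Prosalpha4T1, Prosalpha4T2, Prosalpha6T, Rpn12R, Rpn13R and Rpt6R peaked at 0.334, 0.877, 0.264, 0.143, 0.274 and 0.381 ppm. Rpt4R reached 1.60 ppm in 1 library, which put it just outside the rule, and Prosbeta2R2, with 2 libraries and a peak of 2.61 ppm, lay just inside.

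Gene structure differed between the particles. The median exonic length was 973 bases for the 13 core genes (815 to 1215) and 1589 for the 18 regulatory genes (995 to 3412) in the BDGP6.54 annotation. Across the 31 genes the length correlated with the stage change in input at a Pearson r of -0.68, but r was 0.03 within the core and -0.28 within the regulatory particle. These r values are across genes, which are not independent replicates, and are a description. The members lie on 5 chromosome arms (2L, 2R, 3L, 3R and X). Rpn11, for example, spans chromosome 2L from 5058404 to 5059790 on the minus strand (dm6 coordinates). Exons of 12 of the 31 canonical genes overlap those of another gene on the opposite strand, the most for Rpn9 (15.7% of its exonic bases) and Rpt6 (13.0%). The strand setting of the read counting is not given in the sources used here, so their values are less certain.

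Other genes that work with the proteasome also moved in both directions in poly(A) input between NC 9-10 and cellular blastoderm, beside the 27.9% higher and 21.7% lower of all genes. Of the 12 listed assembly factors and alternative caps, 6 were tested, and of these 2 rose and 2 fell. Pomp, the chaperone that matures the core particle, and REG, an alternative cap of the core, had differences of 1.63 ± 0.44 and 1.09 ± 0.28. Sem1, a small lid subunit outside the symbol rule, had 1133 ppm at NC 7-9, 817 and 1162 at NC 9-10, 266 and 169.9 at syncytial blastoderm and 43.7 and 66.5 at cellular blastoderm, with a difference of -4.15 ± 0.54 (SE, adjusted p = 7.16e-05). CG2046, listed under the name of the core assembly factor PSMG1, fell (-2.35 ± 0.44). Pomp and REG, like the core genes, were lower in cellular blastoderm eluate than in input (-1.18 ± 0.44 and -0.80 ± 0.28), and CG2046 was higher (1.92 ± 0.44).

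A list of 15 genes held those for ubiquitin and its activating and conjugating enzymes, and lwr, which conjugates the ubiquitin-like modifier SUMO. Of the 15, 6 rose and 4 fell. The polyubiquitin genes Ubi-p63E and Ubi-p5E fell (-2.59 ± 0.37 and -2.38 ± 0.27), though their repeats are alike and can share reads. The listed ubiquitin genes with the highest input levels went the other way. RpS27A had 2634 and 2712 ppm at NC 9-10 and 5741 and 5679 at cellular blastoderm. RpL40 had 1399 and 1751 ppm, then 3092 and 4730. The summed input level of the list was 7828 to 8778 ppm at NC 9-10 and 13797 to 14650 at cellular blastoderm. The activating enzyme gene Uba1 fell (-1.99 ± 0.22), as did vih, a conjugating enzyme of mitotic exit (-1.61 ± 0.24). Of 11 listed genes, 10 of them tested, for substrate unfolding, shuttling and deubiquitination at the proteasome, 2 rose and 7 fell. Those that fell most were Npl4, Ufd1-like and p47, cofactors of the unfoldase TER94, at -2.68 ± 0.25, -2.52 ± 0.38 and -2.38 ± 0.42. Usp14, a proteasome-bound deubiquitinase, was next at -1.55 ± 0.36.

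Of 17 genes for ubiquitin ligases of the embryonic cycles, 6 rose and 5 fell. The largest changes were those of cort, an activator of the anaphase-promoting complex in meiosis (-4.80 ± 0.37), its subunit gene APC7 (-3.65 ± 0.25), neur, a ligase of Notch signalling that rose (2.82 ± 0.20), and rap, another activator of the complex (-1.67 ± 0.31). Among 3 genes tied to transcription of proteasome genes, cnc, the fly relative of the factors that drive them in mammals, fell (-1.58 ± 0.39), its binding partner maf-S did not pass (1.16 ± 0.47), and Keap1, which restrains cnc, rose (3.27 ± 0.29). Keap1 had 7.4 ppm at NC 7-9, 8.7 and 9.33 at NC 9-10, 17.7 and 18.6 at syncytial blastoderm and 89.0 and 102 at cellular blastoderm, and the syncytial and cellular groups each lay above all earlier inputs.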

How the data were processed

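The authors deposited RPKM tables of 21 poly(A) and 12 rRNA-depleted libraries, from a SMARTer Stranded kit according to the labels' protocols; the submitters' processing notes name STAR, HTSeq and dm6 but no version. The deposited RPKM values step like reads per kilobase multiplied by a factor that differs by library and is not given, with 1 added. Within 0.02, 66.6% to 80.9% of low values per library were whole steps, and reads were estimated from the steps, so no count test or counting interval is given; the number of reads limits precision. The added 1 was taken off, and libraries were scaled to 1000000 and then by the median of ratios (6294 and 6103 genes). Genes at 1 ppm or more in 2 libraries were tested, 8618 and 8034, as log2(level + 1) with limma 3.58.1 in R 4.3.3 (trend, Benjamini-Hochberg, threshold 0.05). Since 1 was added, a fold change understates that of low genes. One fit held all poly(A) libraries with a mean per stage and fraction, and comparisons over all stages had a stage term. It took the fractions of 1 preparation as independent, although their deviations from the stage mean were correlated (r of 0.513 to 0.929). The spread therefore rests on fewer independent units than libraries. The p-values of stage comparisons within input or within eluate may be too small, and the replicate block was not applied to them. The fit was tested on simulated data whose spread was independent between libraries, so that test cannot speak to the correlation between fractions.

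Fractions of 1 stage and dose or replicate in the titles were taken as 1 preparation; their deviations from the stage mean had r of 0.594 to 0.650 (eluate with input), 0.589 to 0.929 (flow-through with input) and 0.513 to 0.676 (eluate with flow-through), which pairs the samples as titled. Alternatives were other scalings, pseudocounts 0.1 and 5, no filter, the replicate block and leaving out each library. Genes named were the highest and lowest of each subcomplex, the copies, and in each comparison the 3 called members with the largest change in each direction, or else the 3 smallest p; others were named after their values were seen. Up to 4 genes per pathway list were named by size of change. Members and lists were chosen with earlier results of these data known. Of 16407 symbols, 16330 matched the BDGP6.54 annotation; 6 listed assembly genes found no row in the tables under their names.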

Additional observations from a re-analysis of the deposited data

Results flagged for a closer look

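Capture differed between stages by a test of the difference itself, the interaction of fraction and stage in limma. From NC 9-10 to cellular blastoderm 10 of the 33 members passed (9 of them canonical, the other being Prosbeta2R2, which met the level rule through the later eluates alone), beside 35.7% of all genes. The share of members called was thus below that of all genes in this fit. Leaving out 1 library gave 5 to 16 members, and the replicate block 25, beside 56.8% of all genes. Of the named members, Rpn11 (2.40), Rpn7 (2.05) and Rpn1 (2.03) had a larger eluate minus input difference at the later stage, in log2 units. Prosbeta4 (-1.23), Rpt1 (-0.96) and Rpn6 (-0.82) had a smaller one, but these 3 calls were made in only 1 of the 8 fits that left out 1 library, and on the values as deposited the differences were 0.52, 0.79 and 0.93. From syncytial to cellular blastoderm 7 members passed (6 of them canonical), a share near the 16.9% of all genes. Rpn11 was at 2.29, Rpn1 at 2.09, Rpt5 at 1.96 and Rpt1 at -1.14. Rpt1 was called there in 2 of the 8 fits that left out 1 library. Leaving out 1 library gave 3 to 12 members there, and the replicate block 24, beside 39.4% of all genes. Rpn11, Rpn1 and Rpt5 are a deubiquitinase, a scaffold and an ATPase of the regulatory particle, and Rpt1 is a neighbouring ATPase of the same ring as Rpt5. Each stage had 2 preparations, and at the blastoderm stages they differed in dose.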

How the results depend on the processing

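Depth limits the copies most, which rest on a few reads, and libraries of unknown scaling limit every statement on direction between stages or fractions. Numbers of members called, out of 33 with Prosbeta2R2 counted, that moved by more than 1.5 times are listed here, and the causes were not tested. On the values as deposited they were, in eluate and input libraries, 33 for NC 9-10, 32 for the syncytial blastoderm and 33 over all stages (0, 0 and 12 on the scale of the report), and 32 in the rRNA-depleted set (0 on that scale). All genes shifted there, with 78.7%, 74.4%, 80.2% and 86.4% of them called and medians of -4.29, -3.74, -3.42 and -5.22. For input they were 5 (syncytial against NC 9-10, 3 on that scale), 14 (cellular against syncytial, 9) and 15 (cellular against NC 9-10, 26), beside 9%, 28.3% and 46% of all genes, and for eluate 1 (5 on that scale) and 4 (7) in the first 2 of these intervals, beside 7.77% and 26.5%. With scaling to the total alone they were 3 for eluate against input at syncytial blastoderm, 14 and 16 for input at cellular blastoderm against syncytial blastoderm and NC 9-10, and 11 and 17 for eluate at syncytial and cellular blastoderm against NC 9-10, beside 14.5%, 28.6%, 42.4%, 26.1% and 57.5% of all genes. Eluate against input over all stages gave 5 with a pseudocount of 0.1 and 2 without the filter, beside 8.82% and 2.21% of all genes. The replicate block was applied to comparisons of poly(A) fractions with input and to the 2 differences in capture, not to stage comparisons within a fraction. It gave 6 for eluate against input at syncytial blastoderm and 25 and 24 for the 2 differences in capture. These stood beside 19.5%, 56.8% and 39.4% of all genes. Among the comparisons it was applied to, the block moved no other count of members by that much.

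On the values as deposited 8 differences turned: Rpn7 (-0.83), Rpn11 (-0.60) and Rpn1 (-0.57) in eluate against input at cellular blastoderm, Prosalpha6 (-0.0172) in input from syncytial to cellular blastoderm, and in the capture differences Prosbeta4 (0.52), Rpt1 (0.79), Rpn6 (0.93) and, from syncytial to cellular blastoderm, Rpt1 (0.0793).

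Leaving out 1 library gave 14 to 26 members called for eluate against input at cellular blastoderm, 0 to 14 over all stages, 1 to 2 for input at syncytial blastoderm against NC 9-10, 4 to 9 for input at cellular against syncytial blastoderm and 13 to 22 against NC 9-10. For eluate it gave 2 to 5, 4 to 9 and 5 to 7 in the same 3 intervals, and for the differences in capture 5 to 16 against NC 9-10 and 3 to 12 against syncytial blastoderm. Comparisons with no member called kept 0. A lone sample left in a group was assumed to vary like the others. With the total alone the median of all genes moved from 0.31 to -0.05 for input and from 0.45 to -0.12 for eluate, cellular blastoderm against NC 9-10.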

Other observations

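Some copies that stayed below the level rule in poly(A) RNA were seen in rRNA-depleted eluates, each from 1 library per stage. In the rRNA-depleted eluate of cellular blastoderm Rpn12R, Rpt6R, Rpt4R and Rpn13R were at 2.28, 1.42, 1.31 and 1.15 ppm, from an estimated 24, 23, 22 and 14 reads. In the input of the same preparation they were at 0.204, 0.0443, 0.256 and 0 ppm. The syncytial blastoderm eluate of that set was shallow, with estimated reads, in units of 1000000, of 2.14 against 31.3 at cellular blastoderm. It held Prosalpha4T2, Rpt6R and Rpt4R at 4.02, 1.75 and 0.84 ppm, from an estimated 4, 2 and 1 reads, so no order between the stages can be read from them. Prosalpha4T2 was at 0 in the deeper cellular blastoderm eluate. It was at 1.86 ppm in the flow-through and 0.663 ppm in the input of that preparation, from an estimated 31 and 13 reads. In the NC 7-9 and NC 9-10 eluates of the set all 5 copies were at 0. Those 2 eluates were shallow too, with estimated reads, in units of 1000000, of 2.99 and 2.69. Copies at such low levels could be missed there, so the 0 values do not show absence.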
